A study of Homo sapiens with 8 samples.

Results

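Chemokines are small secreted proteins that direct the movement of leukocytes, and chemokine receptors are the G protein-coupled receptors that read them. Of the 23562 rows of the deposited count table, 29 were chemokine or chemokine receptor genes, taken by their symbols (CCL, CXCL, XCL or CX3CL with a number for the ligands, and CCR, CXCR, XCR, CX3CR or ACKR with a number for the receptors). They were 15 ligands, 12 receptors that signal and 2 atypical receptors. No antisense or pseudogene row matched, so none was left out. Genes of the family that have no row in the table used were not analysed here.

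OCI-AML5 cells, a cell line grown from a human acute myeloid leukemia, gave all of the RNA. The lentiviral vector lentiCRISPRv2 brought Cas9 and 1 guide RNA into the cells of each library. Control cells (sgControl 1 to 4) carried non-specific guides, the other cells (sgCEBPD 1 to 4) carried guides against CEBPD, the gene of the transcription factor C/EBP delta, and all 8 libraries share the Cas9 vector. Polyadenylated RNA was sequenced. The titles number the libraries 1 to 4 in each group and give no guide sequences. Each number was read as another guide and is called the guide number below. Whether any guide was transduced more than once is not in the labels. Each p-value thus speaks only for the spread among the libraries at hand, where differences between guides and technical spread cannot be told apart.

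Chemokine genes lie in clusters and their products fall into classes by the spacing of the first cysteines (CC, CXC, CX3C). In myeloid cells CXCL8 and its relatives act on CXCR2 and draw neutrophils, while CCL2 acts on CCR2 and draws monocytes out of the bone marrow. Many ligand genes are switched on by NF-kB, often together with C/EBP factors, whereas receptor levels follow the stage of differentiation. Atypical receptors bind chemokines without the usual G protein signal and remove them.

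Library totals lay between 10217751 and 11521209 counts. Levels are given as CPM, the count scaled to a common library size with edgeR's TMM factors, and 1 CPM stood for 10.2 to 11.6 counts. CEBPD transcript was at 202 to 216 CPM in the controls, and at 107, 209, 195 and 164 CPM in sgCEBPD 1 to 4 (adjusted p = 0.551 in edgeR, and 0.498 without sgCEBPD 3). The amount of transcript is no check of the labels, because small edits in a gene need not lower it. Of all genes tested, 34.8% were highest and 34.9% lowest in sgCEBPD 3, a library that thus differs from the other 7, and each comparison is given with it and without it. Of the fixed markers of a myeloid leukemia cell, SPI1 (297 to 433 CPM), PTPRC (306 to 943 CPM) and CD33 (99.0 to 143 CPM) were present in every library, while ANPEP, the gene of CD13, reached at most 0.473 CPM.

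Markers of other cell types were read beside these levels as sums of CPM over each list. Of 15 monocyte and macrophage markers 13 had a row, and their sum was 571 to 620.5 CPM in the controls, 566 to 725 CPM in sgCEBPD 1, 2 and 4 and 1176 CPM in sgCEBPD 3. CD14 was at 0 counts in 3 of the 4 controls and at 41.0 CPM in sgCEBPD 3. Of 14 neutrophil markers 10 had a row, with sums of 314 to 343, 207 to 271 and 589 CPM in the same order. T and NK cell markers (8 of 11 with a row) summed to 24.5 to 83.4, 14.9 to 84.9 and 245 CPM. CD3D, a subunit of the T cell receptor complex, was at 0 counts in sgControl 1, 2 and 3 and in sgCEBPD 4 and at 52.7 CPM in sgCEBPD 3. Of the 8 T and NK cell markers with a row, 5 were highest in sgCEBPD 3 and the rest were not. The share of 34.8% for all genes covers only those with enough counts to be tested. Without sgCEBPD 3, 5 of these markers were tested and none had an adjusted p under 0.05 in edgeR. Megakaryocyte and erythroid markers (4 of 9 with a row) summed to 21.6 to 43.0, 27.7 to 40.2 and 61.0 CPM, B and plasma cell markers (3 of 7) to 5.60 to 6.03, 2.37 to 4.15 and 5.01 CPM, and fibroblast and endothelial markers (5 of 10) to 88.9 to 139.99, 83.1 to 96.8 and 386 CPM. The last sum was nearly all PECAM1, which leukocytes also express (385 CPM in sgCEBPD 3), and COL1A1 stayed at or under 0.259 CPM. Because these were bulk libraries, a smaller share of cells that express a gene and less RNA per cell cannot be told apart. The part of these marker differences in the values of sgCEBPD 3 was not tested.

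Of the 29 genes, 28 matched a gene of GENCODE release 29 on GRCh38, which is the build hg38 that the submitters' processing notes name. CXCL8, CXCL6, CXCL1, CXCL3 and CXCL2 lie within 359 kb of each other on chromosome 4 (73740506 to 74099293). CXCR6, CCR3, CCR1 and CCR2 (46353734 to 46360928, plus strand) are neighbours on chromosome 3. CXCR2 (218125289 to 218137253, plus strand) and CXCR1 are neighbours on chromosome 2, and CCL2 (34255218 to 34257203), CCL5 and CCL23 are on chromosome 17.

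The RefSeq promoter table (GRCh38.p14) held 20 of the 29 genes. The 250 bases upstream of each start were searched on both strands for GGANNTTCC, a form of the NF-kB site, and for TTGCNNAA, a form of the C/EBP site; the patterns do not overlap each other in any window shown. Of all 35116 promoter windows in the table, 3.84% held the first and 9.05% the second. Among the family, 5 genes held the NF-kB pattern, and these were the 5 CXCL genes of chromosome 4. They are shown because these neighbours did not share 1 pattern of levels across libraries. Each line gives the gene's own strand 5′ to 3′ with 10 bases on either side and the match in capitals:
CXCL8 (chr4:73740468-73740496, plus strand): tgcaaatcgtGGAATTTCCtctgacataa
CXCL1 (chr4:73869305-73869333, plus strand): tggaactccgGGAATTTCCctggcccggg
CXCL2 (chr4:74099254-74099282, minus strand): tggagctccgGGAATTTCCctggcccggg
CXCL3 (chr4:74038749-74038777, minus strand): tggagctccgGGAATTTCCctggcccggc
CXCL6 (chr4:73836579-73836607, plus strand): ctgagttcagGGAATTTCCccagcatccc

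The 9 matched letters are the same in all 5 genes, and begin 91 bases upstream of the start in CXCL8, 78 in CXCL1 and CXCL3, 77 in CXCL2 and 89 in CXCL6. Over the whole window, CXCL1 was 70.1% identical to CXCL2 and 81.4% to CXCL3, against 43.9% to CXCL8. The C/EBP pattern was found in 4 genes, CXCL2, CCR2, CCR3 and CCL3L3, and those of the 2 genes detected in every library are shown, since C/EBP delta was the target of the guides:
CXCL2 (chr4:74099366-74099393, minus strand, match on the other strand): ttggcgggagTTACGCAAgacagtcaga
CCR2 (chr3:46353905-46353932, plus strand): acactcaaggTTGCATAAgcaagatttc

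These matches describe the letters only, and no binding was measured. Near forms of a pattern were not counted. In CXCL8, letters that differ from the C/EBP pattern only at its last base lie just upstream of the NF-kB match.

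Of the 29 genes, 9 had at least 10 counts in all 8 libraries, 9 reached 10 counts in some libraries only, and 11 stayed under 10 counts in every library. The 9 detected throughout were the ligands CXCL16, CXCL8, CCL5, CXCL1 and CXCL2, the receptors CCR2, CXCR2 and CCR1, and the atypical receptor ACKR2. Among those that reached 10 counts in some libraries were CCL2, CCL23, CXCL3, CXCL14, CCL28, CXCR4, CX3CR1 and CCR7. The 11 others were CCL17, CCL20, CCL25, CCL3L3, CXCL6, CCR3, CCR4, CCR10, CXCR1, CXCR6 and ACKR4. For a library with 0 counts a limit of 3 counts was used (0.259 to 0.295 CPM), which covers counting error only. The 95% exact Poisson interval for 0 counts reaches somewhat higher, to 3.69 counts.

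Levels of different genes were set side by side per kilobase of merged exons, as CPM per kb in the controls (mean ± SD, n = 4). Merged exons join those of every annotated transcript, so they can be longer than the transcripts present. CCL2 thus counted as 1 exon of 1986 bases over its whole gene, and ACKR2 as 15 exons of 5457 bases. The order of genes below holds for these lengths only. CCR2, the receptor of CCL2 on monocytes and their precursors, had the highest level at 26.6 ± 0.856. CXCR2, the neutrophil receptor of CXCL8, CXCL1 and CXCL2, followed at 16.2 ± 0.237. Among the ligands, CXCL16, a membrane-bound chemokine, stood at 12.6 ± 0.771 and CXCL8 at 11.9 ± 2.51, which did not differ beyond their spread. CXCL1 (8.82 ± 0.814), CCL5 (8.02 ± 2.13) and CXCL2 (7.69 ± 1.07) also lay within their spread of each other. CCR1 followed at 3.86 ± 1.07, and its highest control overlapped the lowest of CCL5. CXCR4 (1.59 ± 1.69), CCL23 (1.15 ± 0.0787), CCL2 (1.02 ± 0.673) and ACKR2 (0.685 ± 0.152) were low and could not be ordered beyond their spread, except that ACKR2 lay below CCL23. By their means CXCL14 (0.444 ± 0.288) and CX3CR1 (0.263 ± 0.0302) followed, and the means of the other matched genes were at most 0.205. The controls of CXCL14 (0.0491 to 0.664) overlapped those of ACKR2 and of CX3CR1, so CXCL14 could not be ordered against them. In sgCEBPD 3 the order was another, with CXCL8 at 75.4, CCL2 at 28.99 and CCR2 at 7.40 CPM per kb.

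Counting could mix near-identical genes, and the counting rules are not given in the sources used here. Of all 50-base words in its transcripts, CXCL2 shared 12.5% with transcripts of other genes (CXCL3 and CXCL1), CXCL3 6.01%, CXCL1 4.81%, CXCR2 6.29% (CXCR1 and a CXCR2 pseudogene), CCR2 0.423% and CXCL8 none. CCL5 shared 13.9% with other transcripts. Exons of ACKR2 overlapped 5 other annotated genes, among them KRBOX1 on the same strand and CYP8B1 on the other, and exons of CXCL16 overlapped MED11 on the other strand.

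With all 8 libraries, 12 of the 29 genes passed the filter on low counts and none of the 12 was called between sgCEBPD and sgControl (edgeR, adjusted p under 0.05). Over all genes tested, 0.0795% were called, 0.00723% as higher and 0.0723% as lower. At an unadjusted p under 0.05 the family had 5 of 12 genes beside 11.4% of all genes, namely 3 higher (CX3CR1, CXCL8 and CCR1, beside 6.56%) and 2 lower (CXCL2 and CXCR2, beside 4.83%). In none of the 12 did the 2 groups stay apart without overlap, where 4.96% of all genes did so as higher and 4.62% as lower. DESeq2 gave no adjusted p for CCL2 and called none of the other 11 genes, with 5 at an unadjusted p under 0.05, and limma-voom called none of the 12, with 3. Without sgCEBPD 3, 13 genes were tested and 1, CXCR2, was called, as lower, beside 2.01% of all genes called in either direction and 1.31% called as lower. There 3 of 13 genes had an unadjusted p under 0.05 (15.5% of all genes), 1 higher (7.3%) and 2 lower (8.16%). The median log2 fold change of the tested members was 0.34 with 8 libraries and -0.01 without sgCEBPD 3, where that of all genes tested was 0.00 in both. A gene that passed the filter through the group where it is high had to differ, so these medians describe the tested genes only.

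**Figure D1:**
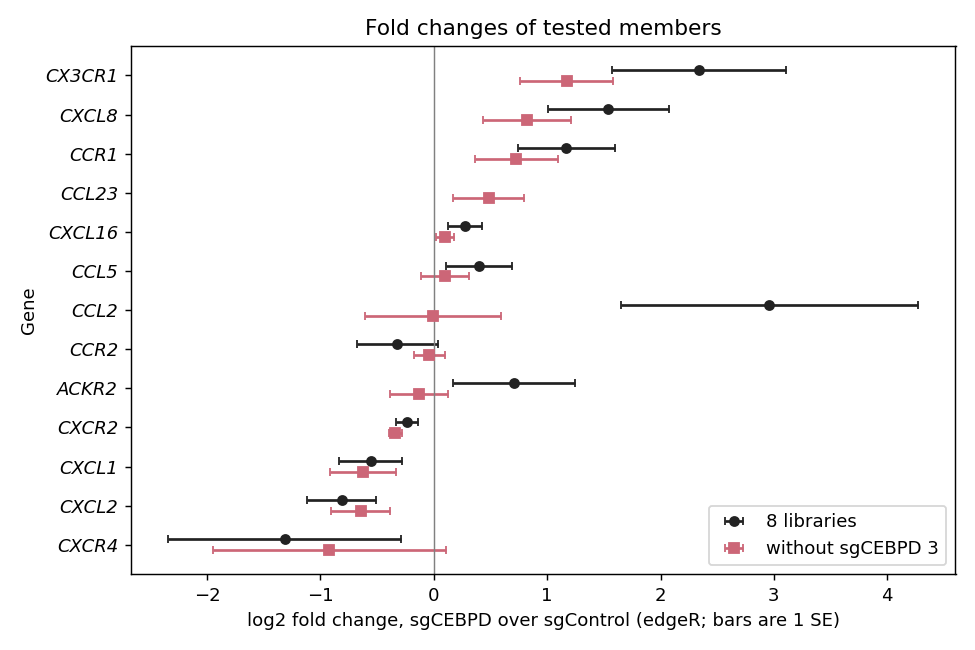
Log2 fold change of sgCEBPD over sgControl (horizontal axis) for each tested chemokine or receptor gene, with 8 libraries (black circles) and without sgCEBPD 3 (red squares); bars are 1 SE. CXCR2 has the narrowest bars (SE 0.06 without sgCEBPD 3), and CCL2 shows the widest move between the fits, from 2.96 to -0.01.

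CXCR2 fell in sgCEBPD 1, 2 and 4. Its levels were 53.3, 52.4, 51.9 and 51.5 CPM in sgControl 1 to 4 and 40.8, 41.7, 53.3 and 41.4 CPM in sgCEBPD 1 to 4. The libraries sgCEBPD 1, 2 and 4 lay below every control and within 1 CPM of each other, and sgCEBPD 3 lay at the level of the highest control. Without sgCEBPD 3 the means were 41.3 ± 0.470 CPM (SD, n = 3) and 52.3 ± 0.764 CPM (SD, n = 4), so the sgCEBPD mean was 79.0% of the control mean. Its log2 fold change was -0.34 (SE 0.06, adjusted p = 0.0156 in edgeR's quasi-likelihood test), and was -0.24 (SE 0.10, adjusted p = 0.421) with all 8 libraries. Of the 13 genes tested without sgCEBPD 3, CXCR2 was the only one whose groups did not overlap, beside 7.5% of all genes apart as lower and 6.89% apart as higher. Leaving out sgControl 1 (adjusted p = 0.0576) or sgCEBPD 1 (0.0582) as well ended the call at nearly the same size of change (-0.33 in both). The sum of neutrophil markers was also lower in sgCEBPD 1, 2 and 4 (207 to 271 CPM, against 314 to 343 CPM in the controls). Most of that sum was CSF3R, the receptor of the granulocyte growth factor G-CSF, so the sum and CSF3R are not separate observations. CSF3R fell from 300 to 195 CPM (adjusted p = 0.0117 in edgeR). Of the 6 neutrophil markers tested, 1 other passed, and it went the other way: S100A8, a calcium-binding protein of neutrophils, rose from 1.03 to 8.14 CPM (adjusted p = 0.0165). The part of these markers in the level of CXCR2 was not tested. CXCR1, its close relative and a second receptor of CXCL8, had at most 1 count in any library.

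None of the CXCR2 ligands of chromosome 4 was called, and their means lay on both sides of the controls. CXCL8, the main neutrophil attractant of human cells, was at 26.8, 35.1, 24.3 and 21.9 CPM in sgControl 1 to 4 and at 41.8, 25.6, 171 and 75.4 CPM in sgCEBPD 1 to 4. The libraries sgCEBPD 1, 3 and 4 lay above all controls, and sgCEBPD 2 lay among the controls. With 8 libraries its fold change on the log2 scale was 1.54 (SE 0.53, edgeR adjusted p = 0.372), and it was 0.82 (SE 0.39, adjusted p = 0.403) without sgCEBPD 3, so CXCL8 was not called in either fit. The lowest adjusted p over its 8-library alternatives was 0.0693, from DESeq2.

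CXCL1 and CXCL2, which also bind CXCR2, had lower means in sgCEBPD, in both fits and without a call. CXCL1 was at 12.5, 12.1, 10.3 and 10.8 CPM in sgControl 1 to 4, and at 7.95, 3.69, 8.94 and 10.5 CPM in sgCEBPD 1 to 4. CXCL2 was at 12.2, 12.8, 11.99 and 9.18 CPM in sgControl 1 to 4, and at 7.76, 4.16, 4.13 and 10.1 CPM in sgCEBPD 1 to 4. For both genes sgCEBPD 1, 2 and 3 lay below every control, and sgCEBPD 4 lay within the control range. For CXCL1 the log2 fold change was -0.56 (SE 0.28, adjusted p = 0.474 in edgeR), or -0.63 (SE 0.29, adjusted p = 0.359) without sgCEBPD 3. That of CXCL2 was -0.81 (SE 0.30, adjusted p = 0.396) and -0.64 (SE 0.26, adjusted p = 0.282). In sgCEBPD 3, CXCL8 stood at 6.34 times and CXCL2 at 0.358 times the control mean. In sgCEBPD 2, CXCL1 stood at 0.323 and CXCL2 at 0.361 times the control mean with CXCL8 at 0.948 times. The library with the lowest CXCL1 was not the one with the highest CXCL8.

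**Figure D2:**
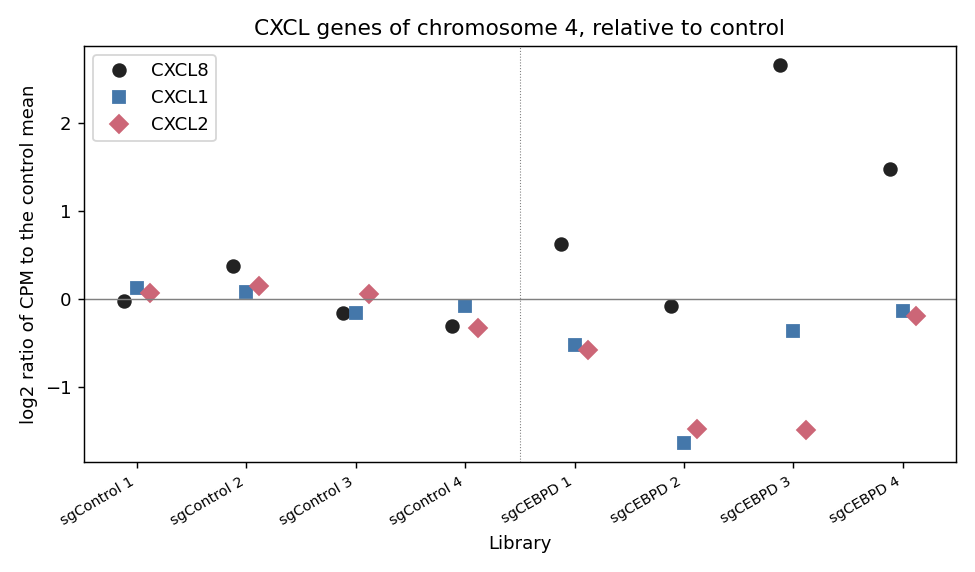
Log2 ratio of each library's CPM to the mean of the 4 controls (vertical axis) for CXCL8, CXCL1 and CXCL2 in the 8 libraries; the dotted line parts the groups. CXCL8 lies above the control mean in sgCEBPD 1, 3 and 4, while CXCL1 and CXCL2 lie below it in all 4 sgCEBPD libraries.

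CXCL3, a close copy of CXCL2, had 8, 4, 5 and 3 counts in sgControl 1 to 4 and 8, 4, 25 and 7 counts in sgCEBPD 1 to 4. Only sgCEBPD 3 reached 10 counts, with a 95% exact Poisson interval of 16.2 to 36.9 counts, so there CXCL3 was high and CXCL2 low. CXCL6, also a CXCR2 ligand, had at most 5 counts, in sgCEBPD 3.

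The monocyte attractant CCL2 and its receptor CCR2 took opposite extremes in sgCEBPD 3. CCL2 was at 2.19, 0.969, 1.09 and 3.86 CPM in sgControl 1 to 4 and at 0.842, 3.50, 57.6 and 1.73 CPM in sgCEBPD 1 to 4. In sgCEBPD 3 it was 28.4 times the control mean, and the other sgCEBPD libraries lay in or just below the control range. For CCL2 the log2 fold change was 2.96 (SE 1.31, adjusted p = 0.442 in edgeR) with that library and -0.01 (SE 0.60, adjusted p = 0.996) without it. The controls themselves differed 3.98-fold between sgControl 4 and sgControl 2.

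CCR2 was at 97.1, 97.0, 99.1 and 103.8 CPM in sgControl 1 to 4 and at 89.8, 121.8, 27.6 and 78.4 CPM in sgCEBPD 1 to 4. The controls were close together, sgCEBPD 2 lay above them, sgCEBPD 1 and 4 below, and sgCEBPD 3 far below at 0.278 times their mean. For CCR2 it was -0.32 (SE 0.36, adjusted p = 0.713 in edgeR), and -0.04 (SE 0.14, adjusted p = 0.934) without sgCEBPD 3. Neither CCL2 nor CCR2 was called in either fit. The sum of monocyte markers was also highest in sgCEBPD 3 (1176 CPM), and its part in the levels of CCL2 and CCR2 was not tested.

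CXCL16, which also acts as a scavenger receptor for oxidised lipoprotein, varied least among the ligands. It was at 34.9, 38.4, 33.5 and 34.2 CPM in sgControl 1 to 4 and at 35.0, 38.0, 57.1 and 40.2 CPM in sgCEBPD 1 to 4. The libraries sgCEBPD 1 and 2 lay within the control range, sgCEBPD 4 just above it, and sgCEBPD 3 highest at 1.62 times the control mean. With 8 libraries the log2 fold change was 0.27 (SE 0.15, adjusted p = 0.508 in edgeR), and 0.10 (SE 0.08, adjusted p = 0.603) without sgCEBPD 3. CXCR6, its receptor, had at most 4 counts.

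CCL5 (RANTES), a ligand of CCR1 and CCR3, was at 14.4, 11.9, 7.63 and 14.5 CPM in sgControl 1 to 4 and at 13.9, 11.2, 25.2 and 13.8 CPM in sgCEBPD 1 to 4. Apart from sgCEBPD 3 the groups overlapped fully, since sgCEBPD 1, 2 and 4 lay within the control range. Over all libraries the log2 fold change was 0.40 (SE 0.29, adjusted p = 0.596 in edgeR), or 0.10 (SE 0.21, adjusted p = 0.883) without sgCEBPD 3. CCL23, another CCR1 ligand, had 9, 9, 9 and 10 counts in sgControl 1 to 4 and 9, 17, 11 and 13 in sgCEBPD 1 to 4. It was tested without sgCEBPD 3 only, where the log2 fold change was 0.48 (SE 0.31, adjusted p = 0.515).

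CCL28, a chemokine of mucosal epithelium, was found in 1 library. It had 76 counts (7.47 CPM) in sgCEBPD 3, 1 count in sgCEBPD 2 and 0 counts in the other 6 libraries. Against the limit of 3 counts per library for a count of 0, the CPM of sgCEBPD 3 was at least 25.7-fold that of each control. The counting error of sgCEBPD 3 itself is left out of that ratio. With counts in 1 library it did not pass the filter and was not tested. CXCL14 went the other way at low counts, with 15, 1, 9 and 14 in sgControl 1 to 4 and 1, 4, 0 and 5 in sgCEBPD 1 to 4. In sgControl 2 it was as low as in sgCEBPD 1, so the groups overlapped.

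**Figure D3:**
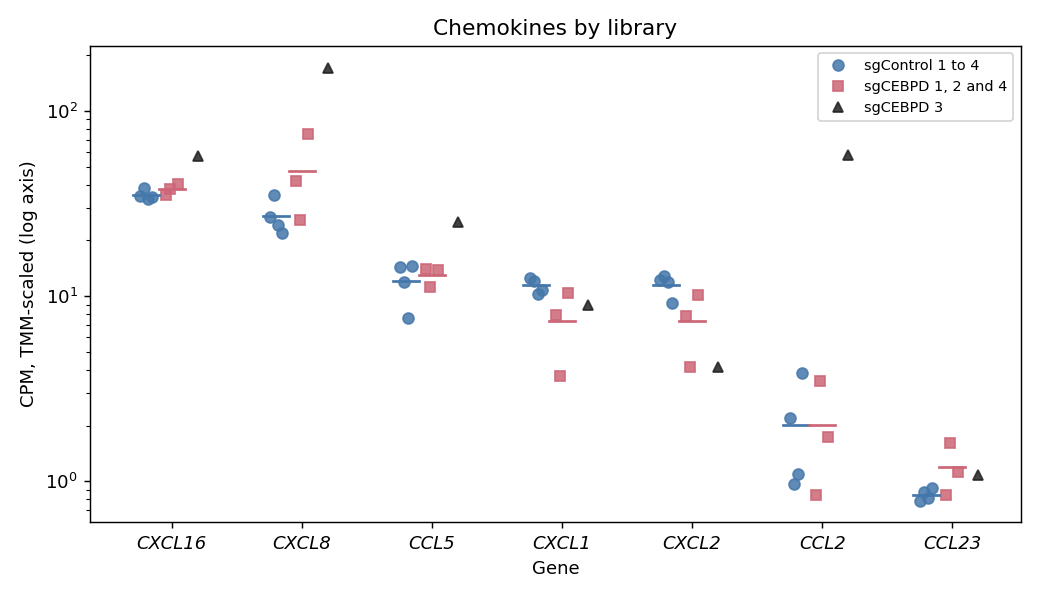
CPM after TMM scaling (log axis) of the 7 chemokines tested in either fit, by library: controls (blue circles), sgCEBPD 1, 2 and 4 (red squares) and sgCEBPD 3 (black triangle), with short lines at the means of the first 2. In CCL2 the triangle lies at 57.6 CPM above all other libraries (at most 3.86 CPM), and in CXCL2 it lies at 4.13 CPM, the lowest value.

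CCR1 and CX3CR1, receptors of monocytes and macrophages, had their highest values in the same pair of libraries. CCR1, which binds CCL5 and CCL23, was at 7.96, 14.3, 8.54 and 11.3 CPM in sgControl 1 to 4 and at 14.1, 27.4, 42.4 and 10.8 CPM in sgCEBPD 1 to 4. CX3CR1, the receptor of fractalkine, was at 0.874, 0.872, 0.999 and 1.10 CPM in sgControl 1 to 4 and at 1.78, 3.78, 13.2 and 1.04 CPM in sgCEBPD 1 to 4. In both genes sgCEBPD 3 was highest and sgCEBPD 2 next, and sgCEBPD 4 lay within the control range. For CCR1 the log2 fold change was 1.17 (SE 0.43, adjusted p = 0.392 in edgeR), or 0.73 (SE 0.36, adjusted p = 0.410) without sgCEBPD 3. For CX3CR1 it was 2.34 (SE 0.77, adjusted p = 0.337), or 1.17 (SE 0.41, adjusted p = 0.200) without sgCEBPD 3, and 0.54 (adjusted p = 0.606) without sgCEBPD 2 as well. Neither gene was called. Of the 13 monocyte and macrophage markers with a row, 12 were highest in sgCEBPD 3, beside 34.8% of all genes tested. That share covers only genes past the filter on low counts, and with 8 libraries 7 of the 13 markers passed it. Of the 12, 7 were next highest in sgCEBPD 2, such as CD14 (41.0 and 2.74 CPM) and CD163 (21.0 and 3.12 CPM). That order was taken from CCR1 and CX3CR1, and the share of all genes that follow it was not computed. LYZ was not highest in sgCEBPD 3. Without sgCEBPD 3, 7 of the markers were tested and none was called, with 4 log2 fold changes above 0 and 3 below. Their part in the levels of CCR1 and CX3CR1 was not tested.

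ACKR2, an atypical receptor that clears inflammatory CC chemokines such as CCL2 and CCL5, was at 2.71, 4.75, 3.72 and 3.76 CPM in sgControl 1 to 4. In sgCEBPD 1 to 4 it was at 3.74, 4.16, 14.2 and 2.33 CPM. All libraries but sgCEBPD 3 lay between 2.33 and 4.75 CPM. For ACKR2 the log2 fold change was 0.71 (SE 0.54, adjusted p = 0.607 in edgeR), and -0.13 (SE 0.26, adjusted p = 0.868) without sgCEBPD 3. ACKR4 had at most 7 counts.

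Of the 12 genes tested, CXCR4, the receptor that holds blood stem cells and leukemia cells in the bone marrow, differed most among the controls. It had 102, 4, 19 and 34 counts in sgControl 1 to 4, which is 8.92, 0.388, 1.73 and 3.12 CPM, and 26, 29, 0 and 6 counts in sgCEBPD 1 to 4. The highest control was 23.0-fold above the lowest, whose 4 counts have a 95% exact Poisson interval of 1.09 to 10.2 counts. In sgCEBPD 3 CXCR4 was at 0 counts, and the control mean of 3.54 CPM was at least 12-fold higher than the limit of 3 counts in that library. Without sgControl 1 the control mean was 1.74 CPM and that bound 5.92-fold. The groups overlapped, and the log2 fold change was -1.32 (SE 1.03, adjusted p = 0.617 in edgeR), or -0.92 (SE 1.02, adjusted p = 0.753) without sgCEBPD 3. Leaving out sgControl 1 moved the first value to -0.30 and the second to 0.0978. Over the 12 genes tested, the median coefficient of variation among the controls was 17.5%, against 8.05% over all genes tested. The coefficient ranged from 1.46% for CXCR2 and 3.22% for CCR2 to 66.0% for CCL2 and 106% for CXCR4. Counting error adds more to this measure at low counts, and genes of like counts were not compared.

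**Figure D4:**
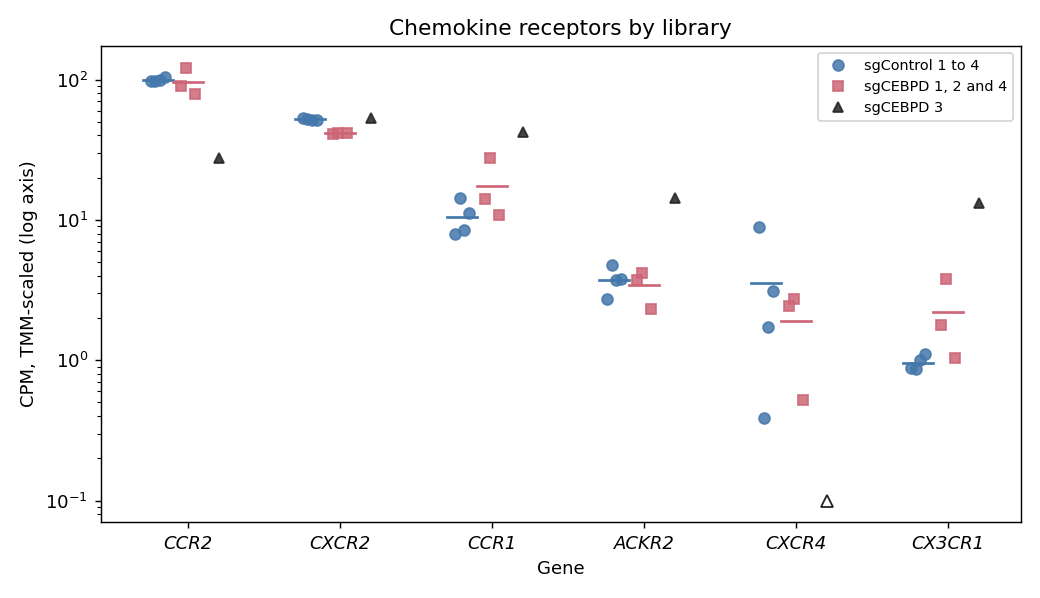
CPM after TMM scaling (log axis) of the 6 receptors tested, by library, with symbols as for the chemokines; the open triangle at the bottom marks CXCR4 in sgCEBPD 3, which was at 0 counts and cannot be drawn on a log axis. The CXCR2 squares lie together at 40.8 to 41.7 CPM below the controls, and the CXCR4 controls spread from 0.388 to 8.92 CPM.

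CCR7, which guides mature dendritic cells and lymphocytes to lymph nodes, had low counts, nearly all of them in sgCEBPD libraries. It had 0, 0, 0 and 1 counts in sgControl 1 to 4 and 8, 18, 3 and 3 counts in sgCEBPD 1 to 4, so the groups did not overlap. The summed counts were 32 against 1, a ratio of 32.5 after scaling with a 95% exact counting interval of 5.43 to 1322, which leaves out the spread between libraries. Of all genes tested with 8 libraries, 4.96% had groups apart as higher, a share that covers only genes past the filter on low counts. CCR7 did not pass that filter. With no filter it was called without sgCEBPD 3 (adjusted p = 0.0097 in edgeR, where 1.72% of all genes were called) and not with 8 libraries (adjusted p = 0.261, where 0.0849% were called).

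CCL3L3, a copy-number variable relative of CCL3, had 4, 7, 6 and 9 counts in sgControl 1 to 4 and 1, 2, 5 and 1 counts in sgCEBPD 1 to 4. Its near-identical copies make this count uncertain. It was not tested with the filter, and with no filter it was not called (adjusted p = 0.511 with 8 libraries and 0.102 without sgCEBPD 3). Without sgCEBPD 3 its groups did not overlap, beside 7.5% of all genes tested that were apart as lower. That share covers only genes past the filter. CCL3L3 was named after its values were seen.

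**Figure D5:**
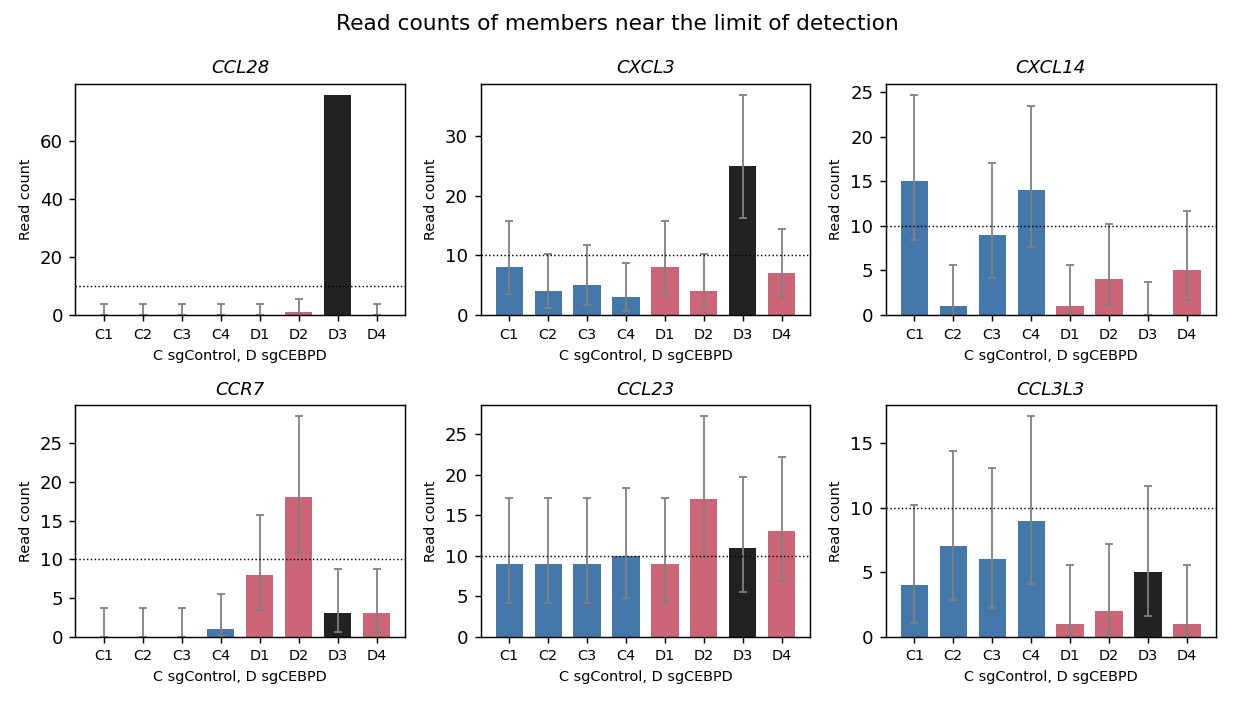
Read counts (vertical axis, from 0) in sgControl 1 to 4 (C1 to C4, blue) and sgCEBPD 1 to 4 (D1 to D4, red, with D3 in black) for 6 genes near the limit of detection; grey bars are 95% exact Poisson intervals for counts under 50 and the dotted line is 10 counts. CCL28 stands at 76 counts in sgCEBPD 3 alone, CCL23 at 9 to 17 in all libraries, and CCR7 at 3 to 18 in the sgCEBPD libraries.

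Of the 12 genes tested with 8 libraries, sgCEBPD 3 had the highest value of all libraries in 8 genes, beside 34.8% of all genes tested, and the lowest in 3, beside 34.9%. It was over 2-fold above every other library in 4 of the 12 (CXCL8, CCL2, CX3CR1 and ACKR2), beside 3.97% of all genes, and by the listed CPM over 2-fold below every other library in 2 (CCR2 and CXCR4), beside 4.45%. CXCR4 was at 0 counts there, and against the limit of 3 counts sgControl 2 and sgCEBPD 4 were not over 2-fold higher. These counts describe 1 library and carry no test.

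The pathway around the receptors was read from lists, each with its count of calls and its median log2 fold change, beside 0.00 for all genes tested in both fits. Of 46 genes fixed as G proteins and effectors below the receptors, 43 were tested and none was called with 8 libraries (edgeR), with a median log2 fold change of 0.16. Without sgCEBPD 3 the median was 0.09 and 2 rose: WAS, the Wiskott-Aldrich regulator of actin, from 113 to 144 CPM (adjusted p = 0.0317), and PIK3R5, a regulatory subunit of PI3K gamma, from 100.5 to 127 CPM (adjusted p = 0.0346). That is 2 of 43 beside 0.705% of all genes called as higher. Of 25 symbols fixed for desensitisation and trafficking, where older symbols of a gene count as well, 21 were tested with medians of 0.10 and 0.01. None was called with 8 libraries. RGS18, which shortens G protein signals, fell without sgCEBPD 3 from 120.5 to 98.2 CPM (adjusted p = 0.0376 in edgeR), with 172 CPM in sgCEBPD 3. That is 1 of 21 beside 1.31% of all genes called as lower.

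Other chemoattractant receptors (18 fixed, 8 tested, medians of 0.06 and -0.10) had no call with 8 libraries and, without sgCEBPD 3, 1 in each direction. Of all genes, 0.705% were called as higher and 1.31% as lower without sgCEBPD 3. S1PR3, a receptor of sphingosine 1-phosphate, fell from 39.0 to 11.1 CPM (edgeR, adjusted p = 0.0436, log2 fold change -1.81 with SE 0.30), and S1PR2 rose from 0.715 to 2.33 CPM (adjusted p = 0.0471). Among 7 other symbols listed for receptors and scavengers, GPR35, for which a chemokine ligand has been proposed, was the only one tested. It rose without sgCEBPD 3 from 14.1 to 23.6 CPM (log2 fold change 0.74, SE 0.14, adjusted p = 0.0314), stood at 65.9 CPM in sgCEBPD 3, and was not called with 8 libraries (adjusted p = 0.308). Of the 3 chemokine genes with other symbols, PPBP had a row and reached 1.18 CPM in sgCEBPD 3 and at most 0.0908 CPM elsewhere.

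Among 23 genes fixed for cleavage and binding of chemokines, 12 were tested with 8 libraries (median 0.10). Of these 1 was called as lower, beside 0.0723% of all genes. It was CTSG, the cathepsin G that trims chemokines at their ends. CTSG was at 31.3 CPM in the controls, 6.92 CPM in sgCEBPD 1, 2 and 4 and 4.72 CPM in sgCEBPD 3 (adjusted p = 0.0183 in edgeR with 8 libraries). Without sgCEBPD 3, 13 were tested (median -0.15) and 2 fell, beside 1.31% of all genes called as lower. CTSG fell again, and the gene of carboxypeptidase M, which removes the last residue of some chemokines, fell from 29.2 to 21.6 CPM (adjusted p = 0.0343 in edgeR). Of 25 cytokines and NF-kB targets, 15 were tested and none was called in either fit, with median log2 fold changes of 0.31 and 0.09. The lowest p without sgCEBPD 3 belonged to NFKB1 (132 against 122 CPM, adjusted p = 0.260) and TRAF1 (8.24 against 11.1 CPM, adjusted p = 0.380). Of 12 genes for MIF, its receptor chain and chemokine-like factors, 8 were tested and none was called in either fit, with medians of 0.21 and 0.17. CD74, which binds MIF, was at 1369 CPM in the controls and 1976 CPM in sgCEBPD 1, 2 and 4 (adjusted p = 0.119), and CMTM3 at 102 and 122 CPM (adjusted p = 0.177). Of 30 genes of the marker lists tested without sgCEBPD 3, 3 were called as lower, beside 1.31% of all genes, and 2 as higher, beside 0.705%. They were CSF3R (300 to 195 CPM), CD79A (5.42 to 2.05 CPM) and CD33 (132 to 103 CPM) as lower, and S100A8 (1.03 to 8.14 CPM) and PTPRC (334 to 455 CPM) as higher.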

How the data were processed

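Raw read counts per gene were deposited by the authors for 8 libraries, not normalised. FastQC, HISAT2 and DESeq2 are named with build hg38 per the submitters' processing notes; the counting tool, strand setting and annotation are not given in the sources used here. Columns were matched to libraries by library name. The lowest row total was 4 counts.

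The main test used edgeR 4.0.16 under R 4.3.3: filterByExpr by group, TMM scaling and a robust quasi-likelihood fit with the group as the only term, with Benjamini-Hochberg adjustment over all genes tested and a threshold of 0.05. A positive log2 fold change means higher in sgCEBPD; its SE is its absolute size divided by the square root of F. CPM use the 8-library scaling throughout. The scripts were tested on simulated counts. Alternatives were DESeq2 1.42.0, limma-voom (limma 3.58.1), DESeq2 size factors, unscaled library totals, other filters (none, or mean CPM of 1 or more), the guide number as a block, a threshold of 0.01, each library left out, and detection at 5 or 20 counts.

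The members, the lists and the fit without sgCEBPD 3 were chosen with earlier results of these data known. The rule for named genes took every tested member, every member with 10 counts in a library, and up to 4 called genes per list by lowest p, or the 2 with the lowest p. The values of 1 gene are not reported here. Marker lists are named by their sums and their calls. Intervals and limits for counts cover counting error only. Alignments of promoters used Biopython 1.88.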

Additional observations from a re-analysis of the deposited data

Results flagged for a closer look

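In groups of 4 libraries, 24 groups of values (12 genes in each group) were examined for a library far from the other 3, and 3 were found where chance gives about 1 in 20, or 1.2. The share over all genes tested was not computed, so the 3 are not read as an excess of this family. Of all genes tested, 34.8% were highest and 34.9% lowest in sgCEBPD 3. In all 3 flagged groups the library apart was sgCEBPD 3, among the sgCEBPD libraries. CCL2 stood at 57.6 CPM there, and the next highest sgCEBPD library had 3.50 CPM. ACKR2 stood at 14.2 CPM, with 4.16 CPM next. CXCR2 stood at 53.3 CPM, with 41.7 CPM next, and there the library apart was the one at the control level.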

How the results depend on the processing

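With 8 libraries 11 genes were called, and 292 with DESeq2, 20 with no filter, 1 with a replicate block for the guide number, 1 at an adjusted p under 0.01, and 0 to 283 with a library left out. Members called stayed at 0 in all of these except without sgCEBPD 3, where the count was 1 (range 0 to 1). Without sgCEBPD 3, 283 genes were called, and 596 with DESeq2, 40 at an adjusted p under 0.01, and 66 to 312 with a further library left out. The 1 member called there (CXCR2) became 2 with no filter (CCR7 added) and 0 with the replicate block (adjusted p of CXCR2 0.0511) or at an adjusted p under 0.01, and the range with a library left out was 0 to 1. CXCR2 passed in 11 of 14 alternatives, with adjusted p from 0.00200 to 0.0582 and log2 fold changes from -0.35 to -0.33. With 8 libraries, leaving out a library moved the log2 fold change of CCL2 between -0.00936 and 3.47 and that of ACKR2 between -0.13 and 0.98, and both were below 0 only without sgCEBPD 3. Without sgCEBPD 3, values changed sign with a library left out: CXCR4 (-0.92 with all 7) from -1.29 to 0.0978, above 0 only without sgControl 1, and 4 values nearer 0, namely CCL2 from -0.64 to 0.50, ACKR2 from -0.30 to 0.0835, CCL5 from -0.0703 to 0.20 and CCR2 from -0.24 to 0.0914; the block gave -0.0705 for CCL5. The causes were not tested. Leaving out sgCEBPD 2 gave the 0 calls with 8 libraries, and leaving out sgControl 1 the 66. Same-numbered libraries did not deviate together (correlations 0.03, 0.06, -0.08 and -0.04), and each library's best match was its own number only for guide 2, so the number is not used as a pairing. Genes with at least 10 counts in all libraries numbered 9, and 12 at 5 counts and 9 at 20 counts. Genes under the filter on low counts, such as CCR7 and CCL3L3, were tested only with no filter.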
